A study of Mus musculus with 10 samples.

Results

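The 38 genes described here encode the scaffold, kinase, phosphatase and adhesion proteins of the postsynaptic density. They were chosen by gene symbol, and each symbol matched 1 of the 55536 gene identifiers in the count table. All 38 passed the filter on low counts that left 20301 genes for testing, and none was at a count of 0 in any library. RNA on ribosomes was isolated by translating ribosome affinity purification (TRAP) from the S1DZ of mouse brain, as the labels name the site. Il-17rb-Cre mice (3 libraries), Il-17ra-Cre mice (3 libraries) and Il-17rc-Cre mice (4 libraries) were compared, each group named below by its driver as Il17rb-Cre, Il17ra-Cre and Il17rc-Cre. All mice received the same adeno-associated virus, AAV5-EF1α-Flex-EGFPL10a, at 400 nl per side 4 weeks before collection. Its Flex cassette carries ribosomal protein L10a fused to EGFP and is turned on by Cre, so that ribosomes of cells with Cre can be pulled down with antibodies against GFP. Each profile therefore rests on where the driver and the virus act together, on a ubiquitous EF1α promoter, and on how many cells of each type took up the virus. Pull-downs were set against each other, since no libraries without Cre or of whole tissue were used here. Age and sex of the mice are not given in the labels.

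The postsynaptic density is the protein lattice beneath the membrane of excitatory synapses on dendritic spines. Guanylate kinase scaffolds of the Dlg family hold glutamate receptors and adhesion proteins at the membrane, SAPAP proteins link them to Shank proteins, and Homer proteins join Shank to metabotropic receptors and the actin cytoskeleton. Calcium entering through receptors loads calmodulin, which activates the kinase CaMKII and the phosphatase calcineurin, and these change synaptic strength in opposite directions. Most of these genes are strongly expressed in excitatory neurons of the forebrain, while a few family members are also expressed in glia.

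Total counts per library were 39692925 to 165844244, the smallest count of any member was 15 (Lrfn2 in Il17ra-Cre replicate 2), and Il17ra-Cre replicate 3 was the deepest library. Values are given in CPM, counts scaled to library size by TMM, errors are SD, and errors on log2 fold changes are SE. As a check of the labels, Il17rb was at 0.714 ± 0.138 CPM in Il17rb-Cre, 2.26 ± 1.31 CPM in Il17ra-Cre and 1.27 ± 1.13 CPM in Il17rc-Cre, with no comparison past the test. Il17ra was at 26.5 ± 7.31 CPM in Il17rb-Cre, 18.5 ± 2.53 CPM in Il17ra-Cre and 18.8 ± 2.97 CPM in Il17rc-Cre, and no comparison passed. Il17rc was at 1.89 ± 1.15 CPM in Il17rb-Cre, 29.4 ± 10.4 CPM in Il17ra-Cre and 28.3 ± 8.37 CPM in Il17rc-Cre, lower in Il17rb-Cre than in both others (log2 fold changes -3.96 ± 0.47 and -3.90 ± 0.46, edgeR adjusted p = 0.000171 and 0.000139). None of the 3 driver genes was higher in its own group than in both others at an edgeR adjusted p of 0.05, and the group names stand for the labels. The 10 astrocyte markers summed to 692 to 724 CPM in Il17rb-Cre libraries, 7407 to 14914 CPM in Il17ra-Cre libraries and 11779.9 to 18104 CPM in Il17rc-Cre libraries, lowest in Il17rb-Cre without overlap. The 16 pan-neuronal markers summed to 21683 to 21919.7 CPM in Il17rb-Cre, 5978 to 8943 CPM in Il17ra-Cre and 5448 to 6457 CPM in Il17rc-Cre. The 10 excitatory neuron markers summed to 3094 to 3917 CPM in Il17rb-Cre, 484 to 1307 CPM in Il17ra-Cre and 824 to 996 CPM in Il17rc-Cre. Both neuronal sums were highest in Il17rb-Cre without overlap. The 8 oligodendrocyte markers summed to 1150.0, 1005 and 1106 CPM in Il17rb-Cre, 44453, 30383 and 5314 CPM in Il17ra-Cre and 1221, 3928, 1032 and 2426 CPM in Il17rc-Cre. Il17ra-Cre replicate 3 stood apart from the other 2 of its group, with fewer oligodendrocyte and astrocyte transcripts and more excitatory ones. Inhibitory neuron markers summed to 1046 to 1109 CPM in Il17rb-Cre, 339 to 518 CPM in Il17ra-Cre and 839.9 to 1215 CPM in Il17rc-Cre, and microglia markers to 11.4 to 18.1, 639 to 1069.6 and 29.3 to 168 CPM in Il17rb-Cre, Il17ra-Cre and Il17rc-Cre. Oligodendrocyte precursor, endothelial and mural markers were all lowest in Il17rb-Cre without overlap, at 52.2 to 75.5, 1.11 to 5.58 and 4.30 to 8.46 CPM, and some endothelial, mural and microglial markers were at 0 there. Neuronal and glial content thus moved with the driver. The part of cell content in the differences below was not tested in the CPM values, and in these bulk libraries fewer cells of a type and less RNA per cell cannot be told apart.

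In CPM, most of the postsynaptic density genes were higher in Il17rb-Cre libraries than in either other group, while set against pan-neuronal transcripts their median log2 fold changes were -0.34 and -0.76, below 0 but above the medians of all genes on that scale (-1.72 and -1.82). Against Il17ra-Cre, 28 of 38 rose and 2 fell, where 16.4% of all tested genes rose and 24.4% fell at an edgeR adjusted p of 0.05. The members' median log2 fold change was 1.25, beside -0.09 over all tested genes. Against Il17rc-Cre, 28 rose and 2 fell, where 17.7% of all tested genes rose and 21.9% fell, with a median of 1.07 beside 0.02 over all genes. Between Il17ra-Cre and Il17rc-Cre, 0 of 38 rose and 0 fell, where 1.38% and 0.798% of all genes did, and 5 members had an unadjusted p under 0.05. The 2 comparisons with Il17rb-Cre share its 3 libraries, so their likeness is not independent support. Where a pair of log2 fold changes is given for a gene, the first is Il17rb-Cre against Il17ra-Cre and the second Il17rb-Cre against Il17rc-Cre. Homer3 and Camk2d were the 2 genes that fell, in both. Every Il17rb-Cre library lay above every Il17ra-Cre library for 32 members and below for 2, where 24.6% of all tested genes lay wholly above and 29.2% wholly below. Against Il17rc-Cre the counts were 33 above and 2 below, where 27.5% and 25.5% of all tested genes were.

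The Dlg genes encode the membrane-associated guanylate kinase scaffolds. In CPM, 3 of the 4 rose in each comparison with Il17rb-Cre and Dlg1 did not pass, where 16.4% and 17.7% of all tested genes rose. Dlg4 (ENSMUSG00000020886, chromosome 11, 70016942 to 70047522, forward strand, GRCm38 as for all positions), the main scaffold under AMPA and NMDA receptors, was at 92.8, 100.4 and 95.3 CPM in Il17rb-Cre, 23.3, 28.8 and 65.5 CPM in Il17ra-Cre and 42.6, 37.4, 47.3 and 33.5 CPM in Il17rc-Cre. All Il17rb-Cre libraries were higher than all others, and Il17ra-Cre replicate 3 was the highest of the rest. The log2 fold change was 1.29 ± 0.34 against Il17ra-Cre (edgeR adjusted p = 0.0116) and 1.26 ± 0.31 against Il17rc-Cre (edgeR adjusted p = 0.00884). Dlg2, whose protein anchors NMDA receptors and potassium channels, averaged 63.5 ± 6.82 CPM in Il17rb-Cre, 33.1 ± 9.34 CPM in Il17ra-Cre and 33.7 ± 3.48 CPM in Il17rc-Cre, with log2 fold changes of 0.94 ± 0.21 and 0.91 ± 0.20 (edgeR adjusted p = 0.00586 and 0.00453). Dlg3, a scaffold prominent at young synapses, rose by 0.91 ± 0.18 and 0.78 ± 0.17 on the log2 scale (edgeR adjusted p = 0.00283 and 0.00442). Dlg1 (ENSMUSG00000022770, chromosome 16, 31663443 to 31875129, forward strand), which is also used for cell polarity outside neurons, was at 81.7, 73.5 and 75.5 CPM in Il17rb-Cre, 87.1, 87.4 and 46 CPM in Il17ra-Cre and 52.3, 83.0, 48.4 and 61.8 CPM in Il17rc-Cre. Its groups overlapped, with 2 Il17ra-Cre libraries above all 3 of Il17rb-Cre and the third below them. Its log2 fold change was 0.07 ± 0.27 against Il17ra-Cre, with a 95% interval of -0.53 to 0.66 (edgeR adjusted p = 0.867), and 0.33 ± 0.25 against Il17rc-Cre (edgeR adjusted p = 0.329).

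The Dlgap genes encode the SAPAP proteins, which bridge Dlg and Shank scaffolds. In CPM, all 4 rose against Il17ra-Cre (median 1.42) and 3 of 4 rose against Il17rc-Cre (median 0.97). Among all tested genes, 16.4% and 17.7% rose. Dlgap1 (ENSMUSG00000003279, chromosome 17, 69969073 to 70821413, forward strand) was at 523, 553 and 597 CPM in Il17rb-Cre, 122, 151 and 195 CPM in Il17ra-Cre and 269, 287, 205 and 204 CPM in Il17rc-Cre. The 3 groups did not overlap, with Il17rb-Cre highest and Il17ra-Cre lowest. The log2 fold change was 1.84 ± 0.21 against Il17ra-Cre and 1.21 ± 0.19 against Il17rc-Cre (edgeR adjusted p = 0.000141 and 0.000794). Dlgap3 (ENSMUSG00000042388, chromosome 4, 127169204 to 127237022, forward strand), the SAPAP whose loss in mice causes compulsive grooming, was at 185, 201 and 199 CPM in Il17rb-Cre, 37.8, 45.5 and 69.6 CPM in Il17ra-Cre and 79.3, 66.5, 77.1 and 39.4 CPM in Il17rc-Cre. Every Il17rb-Cre library exceeded every other library, with log2 fold changes of 1.93 ± 0.29 and 1.57 ± 0.26 (edgeR adjusted p = 0.000654 and 0.00113). Dlgap2 averaged 40.9 ± 6.30 CPM in Il17rb-Cre, 20.4 ± 2.47 CPM in Il17ra-Cre and 24.8 ± 7.27 CPM in Il17rc-Cre and rose by 1.01 ± 0.26 and 0.72 ± 0.24 on the log2 scale (edgeR adjusted p = 0.0109 and 0.0338). Dlgap4 averaged 278 ± 17.2 CPM in Il17rb-Cre, 162 ± 47.1 CPM in Il17ra-Cre and 192 ± 29.6 CPM in Il17rc-Cre. It rose against Il17ra-Cre by 0.78 ± 0.21 on the log2 scale (edgeR adjusted p = 0.015), and against Il17rc-Cre its log2 fold change was 0.53 ± 0.20 (edgeR adjusted p = 0.0548). The Dlgap2 call against Il17rc-Cre was lost when any of 8 single libraries was left out (edgeR adjusted p of 0.051 to 0.169), all but Il17ra-Cre replicate 3 and Il17rc-Cre replicate 2. The Dlgap4 difference from Il17rc-Cre passed without Il17ra-Cre replicate 3 or Il17rc-Cre replicate 2 (edgeR adjusted p = 0.0126 and 0.0356).

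Shank proteins are the deeper scaffold that ties SAPAP to Homer and to actin regulators. Shank2 (ENSMUSG00000037541, chromosome 7, 144001928 to 144424494, forward strand) was at 72.4, 78.1 and 90.9 CPM in Il17rb-Cre, 25.7, 33.8 and 42.7 CPM in Il17ra-Cre and 42.0, 58.8, 34.5 and 29.6 CPM in Il17rc-Cre, higher in every Il17rb-Cre library. It rose in both comparisons, by 1.24 ± 0.27 and 0.97 ± 0.25 on the log2 scale (edgeR adjusted p = 0.00491 and 0.0115). The call against Il17rc-Cre was lost without Il17rb-Cre replicate 3 (0.81, edgeR adjusted p = 0.0604). Shank1 was at 151, 137 and 138 CPM in Il17rb-Cre, 65.9, 94.7 and 96.5 CPM in Il17ra-Cre and 92.6, 111, 55.6 and 54.3 CPM in Il17rc-Cre, again without overlap. Its log2 fold change was 0.73 ± 0.28 against Il17ra-Cre (edgeR adjusted p = 0.0627), and it rose by 0.86 ± 0.26 against Il17rc-Cre (edgeR adjusted p = 0.025). Shank1 passed against Il17ra-Cre without Il17rc-Cre replicate 2 or 4 (edgeR adjusted p = 0.0372 and 0.0484), and lost its call against Il17rc-Cre without any 1 Il17rb-Cre library or without Il17rc-Cre replicate 3 or 4 (0.0573 to 0.089). Shank3, a gene of autism and Phelan-McDermid syndrome, was the lowest of the 3 at 20.2 ± 2.82 CPM in Il17rb-Cre, 11.6 ± 4.56 CPM in Il17ra-Cre and 12.6 ± 4.50 CPM in Il17rc-Cre, and neither comparison passed (0.81 ± 0.38 and 0.69 ± 0.35, edgeR adjusted p = 0.119 and 0.15).

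The Homer family split. In CPM, Homer1 and Homer2 rose in Il17rb-Cre and Homer3 fell to near 1 CPM. The windows of up to 250 bases before the RefSeq start (GRCm38.p6) are shown for the 2 members that moved in opposite directions, printed only as far as the GENCODE start where that lies inside the window. For Homer1 the window is chr13:93303507-93303756, forward strand, and capitals mark TGACG or its complement CGTCA, the core of the cAMP response element, with 3 matches. This RefSeq start lies 4122 bases downstream of the start of the GENCODE gene, so that the window is inside the gene. For Homer3 the window is chr8:70282749-70282826, forward strand, 78 bases with none of the motifs searched, since its 4 GGGCGG or CCGCCC matches lie past the GENCODE start.
Homer1: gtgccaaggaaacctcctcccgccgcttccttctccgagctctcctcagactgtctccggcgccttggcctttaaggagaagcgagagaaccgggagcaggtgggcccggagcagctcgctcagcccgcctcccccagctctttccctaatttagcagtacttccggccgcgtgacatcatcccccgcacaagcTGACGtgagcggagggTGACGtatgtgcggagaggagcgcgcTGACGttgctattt
Homer3: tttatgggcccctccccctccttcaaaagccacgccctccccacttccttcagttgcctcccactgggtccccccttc

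Homer1 (ENSMUSG00000007617, chromosome 13, 93299635 to 93405129, forward strand), whose long forms cross-link Shank and group I metabotropic glutamate receptors and whose short form is induced by activity, was at 209.5, 243 and 257 CPM in Il17rb-Cre, 47.6, 57.5 and 85.7 CPM in Il17ra-Cre and 102, 82.1, 85.6 and 79.9 CPM in Il17rc-Cre. All 3 Il17rb-Cre libraries were far above the other 7, which overlapped among themselves. The log2 fold change was 1.89 ± 0.22 against Il17ra-Cre and 1.44 ± 0.20 against Il17rc-Cre (edgeR adjusted p = 0.000152 and 0.000374). Gene-level counts do not separate the long and short forms. Homer3 (ENSMUSG00000003573, chromosome 8, 70282827 to 70294361, forward strand), a homologue best known from cerebellar Purkinje cells, was at 1.35, 1.27 and 1.06 CPM in Il17rb-Cre, 16.1, 12.7 and 17.1 CPM in Il17ra-Cre and 29.0, 20.2, 25.8 and 25.2 CPM in Il17rc-Cre. The 3 groups did not overlap, with Il17rb-Cre lowest and Il17rc-Cre highest. Behind the Il17rb-Cre values stood 72, 95 and 74 counts. The fitted log2 fold change of Homer3 was -3.64 ± 0.23 against Il17ra-Cre and -4.35 ± 0.23 against Il17rc-Cre (edgeR adjusted p = 5.86e-06 and 1.5e-06). Of its exonic length, 25.4% overlaps Ddx49 on the opposite strand, and without strand information reads there cannot be assigned to either gene. The astrocyte sums given above were also lowest in Il17rb-Cre, and their part in the Homer3 difference was not tested. Homer2 was at 16.2, 13.7 and 19.0 CPM in Il17rb-Cre, 7.25, 7.46 and 8.25 CPM in Il17ra-Cre and 11.3, 9.39, 9.68 and 6.32 CPM in Il17rc-Cre. It was higher in every Il17rb-Cre library, by 1.09 ± 0.24 and 0.83 ± 0.22 on the log2 scale (edgeR adjusted p = 0.00551 and 0.0145), and the call against Il17rc-Cre was lost without Il17rb-Cre replicate 1 or 3 (0.055 and 0.0991).

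CaMKII is the most abundant kinase of the postsynaptic density, a holoenzyme built mainly from the alpha and beta subunits in forebrain neurons. Camk2a, Camk2b and Camk2g rose in CPM in both comparisons and Camk2d, a subunit widely used outside neurons, fell in both. The windows before the RefSeq starts of Camk2b (chr11:6065749-6065998, reverse strand) and Camk2d (chr3:126596701-126596950, forward strand) are shown because these 2 subunits moved in opposite directions. Capitals mark GGGCGG or CCGCCC, the GC box, with 3 matches in each. Both windows lie inside the GENCODE gene.
Camk2b: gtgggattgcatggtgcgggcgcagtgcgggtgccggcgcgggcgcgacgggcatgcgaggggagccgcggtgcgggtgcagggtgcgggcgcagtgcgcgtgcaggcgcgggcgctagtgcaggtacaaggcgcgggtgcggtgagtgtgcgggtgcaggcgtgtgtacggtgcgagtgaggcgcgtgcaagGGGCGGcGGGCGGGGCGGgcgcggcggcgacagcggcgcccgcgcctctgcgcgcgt
Camk2d: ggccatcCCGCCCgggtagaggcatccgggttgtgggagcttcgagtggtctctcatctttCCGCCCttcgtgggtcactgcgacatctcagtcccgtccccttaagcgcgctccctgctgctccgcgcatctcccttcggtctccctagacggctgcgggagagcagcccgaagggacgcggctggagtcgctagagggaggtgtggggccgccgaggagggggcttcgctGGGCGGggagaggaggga

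Camk2b (ENSMUSG00000057897, chromosome 11, 5969644 to 6066362, reverse strand) was at 931, 1196 and 1153 CPM in Il17rb-Cre, 179.8, 289 and 353 CPM in Il17ra-Cre and 410.4, 343, 435 and 329.5 CPM in Il17rc-Cre. The lowest Il17rb-Cre library exceeded the highest of the other 7, with log2 fold changes of 2.00 ± 0.25 and 1.53 ± 0.22 (edgeR adjusted p = 0.00021 and 0.000491). Camk2a, the alpha subunit and a standard marker of forebrain excitatory neurons, was at 565, 589 and 536 CPM in Il17rb-Cre, 168, 213 and 255 CPM in Il17ra-Cre and 186, 229, 171 and 113 CPM in Il17rc-Cre. The Il17rb-Cre libraries lay within a narrow band above all others, and Il17ra-Cre and Il17rc-Cre overlapped. Its log2 fold changes were 1.41 ± 0.25 and 1.69 ± 0.23 (edgeR adjusted p = 0.00157 and 0.000319). Camk2g averaged 96.4 ± 11.1 CPM in Il17rb-Cre, 31.6 ± 15.2 CPM in Il17ra-Cre and 36.3 ± 3.20 CPM in Il17rc-Cre, with log2 fold changes of 1.61 ± 0.30 and 1.41 ± 0.28 (edgeR adjusted p = 0.00229 and 0.00278). Camk2d (ENSMUSG00000053819, chromosome 3, 126596302 to 126846326, forward strand) was at 25.3, 25.2 and 39.3 CPM in Il17rb-Cre, 86.3, 90.0 and 85.1 CPM in Il17ra-Cre and 70.9, 122, 64.5 and 130.4 CPM in Il17rc-Cre. Here every Il17rb-Cre library was below every other library, and the Il17rc-Cre libraries spanned the widest range. The fitted log2 fold changes were -1.54 ± 0.30 and -1.69 ± 0.29 (edgeR adjusted p = 0.00255 and 0.00119).

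Nrgn encodes neurogranin, a small dendritic protein that holds calmodulin at low calcium and releases it when calcium rises. It was the most abundant member in every library. The chr9:37552905-37552995, reverse strand stretch before its GENCODE start is shown for that reason, 91 bases of its RefSeq window (GRCm38.p6). Capitals mark CATCTG, the complement of the E-box CAGATG.
Nrgn: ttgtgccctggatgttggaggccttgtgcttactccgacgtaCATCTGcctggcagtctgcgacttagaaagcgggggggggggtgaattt

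Nrgn (ENSMUSG00000053310, chromosome 9, 37544492 to 37552904, reverse strand) was at 18141, 14186 and 14892 CPM in Il17rb-Cre, 1160.2, 1250.2 and 5504 CPM in Il17ra-Cre and 2525, 1384, 2861 and 1710.2 CPM in Il17rc-Cre. All Il17rb-Cre libraries were higher than all others, and Il17ra-Cre replicate 3 was above the rest of its group and above all Il17rc-Cre libraries. The log2 fold change against Il17ra-Cre was 2.58 ± 0.57 (edgeR adjusted p = 0.00535), with a 95% interval of 1.30 to 3.85. Nrgn made up 65.5 to 71.3% of the summed CPM of the 38 members in Il17rb-Cre, 31.5 to 61.7% in Il17ra-Cre and 25.8 to 44.8% in Il17rc-Cre. The other 37 together summed to 7289.5 to 7701 CPM in Il17rb-Cre, 2108 to 3417 CPM in Il17ra-Cre and 2843 to 3983 CPM in Il17rc-Cre, so that Il17rb-Cre lay above both other groups with Nrgn left out, while Il17ra-Cre and Il17rc-Cre overlapped. Ppp3ca (ENSMUSG00000028161, chromosome 3, 136670124 to 136937727, forward strand), a catalytic subunit of the calmodulin-activated phosphatase calcineurin, was at 2116, 1878 and 2050.3 CPM in Il17rb-Cre, 434, 571 and 782 CPM in Il17ra-Cre and 749, 655, 891 and 703 CPM in Il17rc-Cre. Every Il17rb-Cre library exceeded every other one, with log2 fold changes of 1.76 ± 0.22 and 1.43 ± 0.20 (edgeR adjusted p = 0.000219 and 0.000374). Ppp1r9b encodes spinophilin, which targets protein phosphatase 1 to spines. It averaged 115 ± 9.95 CPM in Il17rb-Cre, 65.2 ± 16.0 CPM in Il17ra-Cre and 73.6 ± 13.7 CPM in Il17rc-Cre, with smaller log2 fold changes of 0.82 ± 0.22 and 0.64 ± 0.20 (edgeR adjusted p = 0.0132 and 0.0278). The Ppp1r9b call against Il17rc-Cre was lost without any 1 of the Il17rb-Cre libraries, Il17ra-Cre replicate 2 or Il17rc-Cre replicate 2 or 4 (0.0585 to 0.14).

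The levels differed widely between members once divided by exon length. In CPM per kilobase, Nrgn was at 10832 ± 1452 in Il17rb-Cre, 1816 ± 1708 in Il17ra-Cre and 1459 ± 474 in Il17rc-Cre. Ppp3ca came next, at 202 ± 12.3 CPM per kilobase in Il17rb-Cre, 59.7 ± 17.6 in Il17ra-Cre and 75.1 ± 10.2 in Il17rc-Cre. Baiap2, Camk2b and Camk2a took the next places in all 3 groups. Baiap2 and Camk2b were at 142 ± 4.94 and 119.8 ± 15.6 CPM per kilobase in Il17rb-Cre. In Il17ra-Cre they were at 45.0 ± 26.8 and 30.0 ± 9.60 CPM per kilobase, and the difference was not tested. Their order rests on the length used, since mean CPM in Il17rb-Cre was 708 for Baiap2 and 1093 for Camk2b. Their unions of exons were 4992 and 9125 bases, and their longest transcripts 4005 and 4125 bases. At the low end stood Homer3 in Il17rb-Cre, at 0.356 ± 0.0440 CPM per kilobase and rank 38 of 38, against rank 20 in Il17ra-Cre and rank 17 in Il17rc-Cre. Lrfn2 was lowest in Il17ra-Cre and Il17rc-Cre, at 0.301 ± 0.276 and 0.300 ± 0.0947 CPM per kilobase. Across the 38 members, the log2 fold change against Il17ra-Cre had a Spearman correlation of -0.246 with exon length and against Il17rc-Cre of -0.409, as a description over genes that share the same libraries.

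Adhesion proteins and synapse organisers span the cleft or recruit the scaffold. Of 9, 7 rose in CPM against Il17ra-Cre (median 1.15) and 6 rose against Il17rc-Cre (median 1.10), with 0 lower in either. Among all tested genes, 16.4% and 17.7% rose and 24.4% and 21.9% fell. Icam5 (ENSMUSG00000032174, chromosome 9, 21032073 to 21039036, forward strand), or telencephalin, an adhesion protein of forebrain dendrites, was at 53.4, 71.8 and 58.6 CPM in Il17rb-Cre, 9.25, 20.4 and 25.9 CPM in Il17ra-Cre and 23.1, 18.5, 27.8 and 14.5 CPM in Il17rc-Cre. Il17rb-Cre was higher without overlap, with log2 fold changes of 1.72 ± 0.36 and 1.55 ± 0.33 (edgeR adjusted p = 0.00395 and 0.00429), although 30.8% of its exonic length overlaps genes on the opposite strand. Lrrc4, a netrin-G ligand, averaged 28.7 ± 3.48 CPM in Il17rb-Cre, 12.9 ± 2.19 CPM in Il17ra-Cre and 12.6 ± 3.55 CPM in Il17rc-Cre, with log2 fold changes of 1.15 ± 0.27 and 1.18 ± 0.25 (edgeR adjusted p = 0.0071 and 0.00397). Among the neurexin-binding Lrrtm proteins, Lrrtm4 rose in both comparisons (1.35 ± 0.33 and 1.10 ± 0.30, edgeR adjusted p = 0.00916 and 0.0163) at 6.88 ± 1.73 CPM in Il17rb-Cre, 2.71 ± 0.654 CPM in Il17ra-Cre and 3.22 ± 0.686 CPM in Il17rc-Cre, and 25.1% of its exonic length overlaps Gm4409 on the opposite strand. Its call against Il17rc-Cre was lost without Il17rb-Cre replicate 1 or 2 (0.067 and 0.0919). Lrrtm2 was at 16.6, 18 and 21.5 CPM in Il17rb-Cre, 19.9, 17.8 and 20.8 CPM in Il17ra-Cre and 7.84, 11.6, 7.99 and 15.5 CPM in Il17rc-Cre. Il17rb-Cre and Il17ra-Cre overlapped and both lay above Il17rc-Cre. Its log2 fold change was -0.06 ± 0.27 against Il17ra-Cre (edgeR adjusted p = 0.878, 95% interval -0.66 to 0.54), and against Il17rc-Cre it rose by 0.80 ± 0.25 (edgeR adjusted p = 0.0277), a call lost without any 1 Il17rb-Cre library or Il17rc-Cre replicate 1 or 3 (0.0548 to 0.131).

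Lrrtm1 was at 43.0, 50.3 and 54.9 CPM in Il17rb-Cre, 9.19, 15.0 and 37.6 CPM in Il17ra-Cre and 21.2, 24.7, 31.3 and 21.1 CPM in Il17rc-Cre. Il17rb-Cre was highest without overlap, and Il17ra-Cre replicate 3 was well above the rest of its group. Lrrtm1 rose against Il17ra-Cre by 1.26 ± 0.43 on the log2 scale (edgeR adjusted p = 0.0379), which became 2.03 without Il17ra-Cre replicate 3, and the call was lost without any of 6 other libraries (0.0507 to 0.121), Il17ra-Cre replicates 1 and 2, the 3 of Il17rb-Cre and Il17rc-Cre replicate 1. Against Il17rc-Cre it was 1.01 ± 0.39 (edgeR adjusted p = 0.0637), and it passed without Il17ra-Cre replicate 1 or 3 (0.0295 and 0.00363). Lrfn2, which binds the Dlg scaffolds, was at 2.53, 5.29 and 2.67 CPM in Il17rb-Cre, 0.512, 0.398 and 1.98 CPM in Il17ra-Cre and 1.05, 0.927, 1.29 and 0.566 CPM in Il17rc-Cre. Il17rb-Cre was highest without overlap, and this member had the fewest counts in any library. Its calls (1.83 ± 0.65 and 1.87 ± 0.59, edgeR adjusted p = 0.0459 and 0.03) were lost without any of 8 libraries against Il17ra-Cre (0.0564 to 0.16), all but Il17ra-Cre replicate 3 and Il17rc-Cre replicate 4, and without any of 5 against Il17rc-Cre (0.0559 to 0.15), Il17rb-Cre replicates 2 and 3 and Il17rc-Cre replicates 1, 2 and 4. Without Il17ra-Cre replicate 3 the first was 2.94.

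Of the neuroligins, the neurexin receptors, Nlgn1 acts mainly at excitatory synapses, Nlgn2 at inhibitory ones and Nlgn3 at both. Nlgn2 was at 31.2, 26.3 and 24.5 CPM in Il17rb-Cre, 9.62, 14.0 and 25.2 CPM in Il17ra-Cre and 11.6, 11.2, 13.2 and 10.3 CPM in Il17rc-Cre. The Il17rb-Cre libraries were above all of Il17rc-Cre, while Il17ra-Cre replicate 3 reached into their range. Nlgn2 rose against Il17rc-Cre by 1.24 ± 0.28 (edgeR adjusted p = 0.0065), and against Il17ra-Cre its log2 fold change was 0.74 ± 0.31 (edgeR adjusted p = 0.0782), 1.21 without Il17ra-Cre replicate 3 (edgeR adjusted p = 0.00185). It was 0.49 when Il17ra-Cre replicate 1 was left out. Nlgn1 averaged 18.1 ± 0.787 CPM in Il17rb-Cre, 10.6 ± 3.03 CPM in Il17ra-Cre and 14.1 ± 1.69 CPM in Il17rc-Cre, and Nlgn3 22.2 ± 3.67 CPM in Il17rb-Cre, 12.2 ± 0.490 CPM in Il17ra-Cre and 16.5 ± 4.88 CPM in Il17rc-Cre. Both rose against Il17ra-Cre (0.77 ± 0.23 and 0.86 ± 0.27, edgeR adjusted p = 0.0215 and 0.0277), and neither passed against Il17rc-Cre (0.36 ± 0.21 and 0.42 ± 0.25, edgeR adjusted p = 0.206 and 0.203). Nlgn1 no longer passed without Il17ra-Cre replicate 1 or 2 or Il17rb-Cre replicate 1 or 2 (0.0503 to 0.0565), and Nlgn3 no longer passed without Il17ra-Cre replicate 1 or 2 or Il17rb-Cre replicate 2 or 3 (0.0787 to 0.0985). The Nlgn3 value against Il17rc-Cre was 0.27 without Il17rb-Cre replicate 2 and 0.24 without Il17rc-Cre replicate 4. Nlgn3 shares 41.2% of its exonic length with Gm21986, so its reads are uncertain.

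Other scaffolds and exchange factors shape the spine. Of 8, 5 rose in CPM against Il17ra-Cre (median 1.38) and 6 against Il17rc-Cre (median 1.28), with 0 lower. Among all tested genes, 16.4% and 17.7% rose and 24.4% and 21.9% fell. Cnksr2 (ENSMUSG00000025658, chromosome X, 157821436 to 158043294, reverse strand), a Ras-pathway scaffold, was at 185, 202 and 194 CPM in Il17rb-Cre, 33.1, 48.6 and 70.0 CPM in Il17ra-Cre and 70.6, 80.3, 77.9 and 63.6 CPM in Il17rc-Cre. Il17rb-Cre lay far above both other groups, with log2 fold changes of 1.94 ± 0.24 and 1.41 ± 0.22 (edgeR adjusted p = 0.000227 and 0.000729). Baiap2, an adaptor that bends membrane and recruits actin regulators, was at 717, 679.7 and 726 CPM in Il17rb-Cre, 118, 180.3 and 375 CPM in Il17ra-Cre and 268, 192, 316 and 279 CPM in Il17rc-Cre. The groups with Il17rb-Cre did not overlap, and Il17ra-Cre replicate 3 was the highest library outside it. Its log2 fold changes were 1.66 ± 0.36 and 1.42 ± 0.33 (edgeR adjusted p = 0.00506 and 0.00698). Iqsec2, an exchange factor for Arf GTPases, rose by 1.40 ± 0.20 and 1.05 ± 0.18 (edgeR adjusted p = 0.000432 and 0.00126), at 74.3 ± 2.79 CPM in Il17rb-Cre, 28.1 ± 6.31 CPM in Il17ra-Cre and 36.0 ± 5.53 CPM in Il17rc-Cre. Lrrc7, or densin, which binds CaMKII, rose by 1.36 ± 0.22 and 1.34 ± 0.20 (edgeR adjusted p = 0.000872 and 0.000534), at 17.6 ± 2.99 CPM in Il17rb-Cre, 6.85 ± 1.08 CPM in Il17ra-Cre and 6.95 ± 0.577 CPM in Il17rc-Cre.

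The other 4 were less settled. Ddn, or dendrin, whose mRNA is found in dendrites, was at 114, 113 and 115 CPM in Il17rb-Cre, 27.7, 54.2 and 82.3 CPM in Il17ra-Cre and 56.8, 53.6, 59.7 and 25.4 CPM in Il17rc-Cre. Il17rb-Cre was higher without overlap, the log2 fold change was 1.05 ± 0.39 against Il17ra-Cre (edgeR adjusted p = 0.053), and Ddn rose by 1.22 ± 0.36 against Il17rc-Cre (edgeR adjusted p = 0.0214). Without Il17ra-Cre replicate 3 or Il17rc-Cre replicate 4 it passed against Il17ra-Cre (0.0116 and 0.0284), and without any 1 Il17rb-Cre library it did not pass against Il17rc-Cre (0.0639 to 0.0677). Neto1, an auxiliary subunit of kainate receptors that also binds NMDA receptors, was at 33.3, 41.9 and 38.3 CPM in Il17rb-Cre, 8.55, 10.9 and 25.8 CPM in Il17ra-Cre and 17, 16.0, 26.6 and 19.0 CPM in Il17rc-Cre. Higher in every Il17rb-Cre library, it rose against Il17ra-Cre (1.32 ± 0.38, edgeR adjusted p = 0.019) and was at 0.94 ± 0.35 against Il17rc-Cre (edgeR adjusted p = 0.054). Neto1 no longer passed the first without Il17ra-Cre replicate 1 or 2 or Il17rb-Cre replicate 2 (0.0547 to 0.0706), and the second comparison passed without Il17ra-Cre replicate 1 or 3 or Il17rc-Cre replicate 3 (0.00429 to 0.042). Prr7, a small transmembrane protein of the postsynaptic density, was at 21.3, 15.3 and 8.52 CPM in Il17rb-Cre, 0.431, 1.72 and 10.5 CPM in Il17ra-Cre and 2.45, 1.48, 4.00 and 1.37 CPM in Il17rc-Cre. The Il17ra-Cre libraries spread over more than the whole Il17rc-Cre range and reached into that of Il17rb-Cre. Prr7 rose against Il17rc-Cre by 2.69 ± 0.85 (edgeR adjusted p = 0.0294), a call lost without Il17rb-Cre replicate 1 or 2 or Il17rc-Cre replicate 1, 2 or 4 (0.0619 to 0.0999), and its 1.81 ± 0.91 against Il17ra-Cre (edgeR adjusted p = 0.14) became 3.80 without Il17ra-Cre replicate 3 (edgeR adjusted p = 0.0031).

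Kalrn, an exchange factor for Rac that enlarges spines, was at 215, 241 and 242 CPM in Il17rb-Cre, 188, 210.3 and 66.1 CPM in Il17ra-Cre and 314, 856, 267 and 112 CPM in Il17rc-Cre. Il17rc-Cre replicate 2 was far above every other library, and Il17ra-Cre replicate 3 was the lowest. Neither comparison with Il17rb-Cre passed (0.59 ± 0.63 and -0.74 ± 0.60, edgeR adjusted p = 0.49 and 0.356). Without Il17rc-Cre replicate 2 the value against Il17rc-Cre was 0.0074 (edgeR adjusted p = 0.994). The value against Il17ra-Cre was 0.23 when Il17ra-Cre replicate 3 was left out.

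Because the pull-downs held different amounts of neuronal RNA, each member was also set against the summed counts of the 16 pan-neuronal genes of its library. On this scale the median of all genes moved by -1.72 (Il17rb-Cre against Il17ra-Cre), -1.82 (Il17rb-Cre against Il17rc-Cre) and -0.20 (Il17ra-Cre against Il17rc-Cre), and members are read relative to these shifts. Per pan-neuronal transcript, the higher levels of most members in Il17rb-Cre were no longer seen. Against Il17ra-Cre, 1 of 38 rose and 13 fell, where 1.10% of all tested genes rose and 67.6% fell, and the members' median was -0.34. Against Il17rc-Cre, 1 rose and 26 fell, where 0.222% rose and 73.2% fell, with a median of -0.76. The member medians thus lay above the median of all genes in both comparisons, and below 0. This scale changes only the size of each library, so all genes shift nearly alike. A member's place relative to all genes therefore repeats the CPM result and is not separate support. Snap25 supplied 47.4% of the scale in Il17rb-Cre, 28.6% in Il17ra-Cre and 36.3% in Il17rc-Cre, so that the scale itself differed in make-up between groups. With the 10 excitatory markers as the scale, 0 members rose and 25 fell against Il17ra-Cre, where 0.227% of all genes rose and 77.2% fell. On that scale 1 rose and 22 fell against Il17rc-Cre, where 0.178% and 71.9% did.

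Nrgn was the single member that rose per pan-neuronal transcript. It amounted to 83.1, 64.7 and 68.7% of the summed pan-neuronal counts in Il17rb-Cre, 19.4, 18.6 and 61.5% in Il17ra-Cre and 40.8, 21.4, 44.9 and 31.4% in Il17rc-Cre. All Il17rb-Cre libraries were above all others, but Il17ra-Cre replicate 3 came within a few percentage points of the lowest. The log2 fold change was 1.12 ± 0.45 against Il17ra-Cre (edgeR adjusted p = 0.046) and 1.06 ± 0.41 against Il17rc-Cre (edgeR adjusted p = 0.0388). These calls rested on single libraries. The first was lost without any of 8 libraries, all but Il17ra-Cre replicate 3 and Il17rc-Cre replicate 2 (0.83 to 1.19, edgeR adjusted p of 0.0528 to 0.141), and was 1.93 without Il17ra-Cre replicate 3. The second was lost without any of 6 libraries, the 3 of Il17rb-Cre and Il17rc-Cre replicates 1, 2 and 4 (0.89 to 1.15, edgeR adjusted p of 0.0507 to 0.106).

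Homer3, Camk2d, Dlg1 and Lrrtm2 fell farthest per pan-neuronal transcript against Il17ra-Cre. Homer3 was at 0.00619, 0.00578 and 0.00488% of the pan-neuronal sum in Il17rb-Cre, 0.269, 0.189 and 0.191% in Il17ra-Cre and 0.469, 0.312, 0.405 and 0.463% in Il17rc-Cre. The groups stood far apart, with fitted log2 fold changes of -5.26 ± 0.28 and -6.19 ± 0.29 (edgeR adjusted p = 1.03e-06 and 2.97e-07), below the shift of all genes. Camk2d was at 0.116, 0.115 and 0.181% in Il17rb-Cre, 1.44, 1.34 and 0.952% in Il17ra-Cre and 1.15, 1.89, 1.01 and 2.39% in Il17rc-Cre. Its fitted log2 fold changes of -3.18 ± 0.37 and -3.55 ± 0.37 (edgeR adjusted p = 4.53e-05 and 1.58e-05) were also below that shift. Dlg1 (-1.63 ± 0.35, edgeR adjusted p = 0.00205) and Lrrtm2 (-1.69 ± 0.33, edgeR adjusted p = 0.00107) were close to it. Of the CaMKII subunits, Camk2a, Camk2b and Camk2g did not pass in either comparison on this scale, with log2 fold changes of -0.19, 0.42 and 0.06 against Il17ra-Cre and -0.13, -0.31 and -0.42 against Il17rc-Cre. Camk2a was at 2.59, 2.69 and 2.47% of the pan-neuronal sum in Il17rb-Cre, 2.81, 3.16 and 2.85% in Il17ra-Cre and 3.0, 3.54, 2.69 and 2.07% in Il17rc-Cre, a range of libraries far narrower than in CPM. The 5 members with every Il17rb-Cre library above every Il17ra-Cre library on this scale were Dlgap1, Dlgap3, Homer1, Cnksr2 and Nrgn, of which Nrgn passed the test, and 18 members lay wholly below. Of all tested genes, 2.38% lay wholly above and 70.1% wholly below. Against Il17rc-Cre, Nrgn lay wholly above and 28 members wholly below, where 0.769% and 73.8% of all tested genes did. Against Il17rc-Cre, all 4 Dlg genes, all 3 Shank genes and all 3 Homer genes fell, with medians of -0.99, -0.96 and -0.99, which lie above the median of all genes, and 73.2% of all tested genes fell there too. The Homer1 call among these was lost without any of 7 libraries (edgeR adjusted p of 0.0529 to 0.146), all but Il17ra-Cre replicates 1 and 3 and Il17rc-Cre replicate 2, and the Dlg4 call without any of 6 (0.0529 to 0.102), the 3 of Il17rb-Cre and Il17rc-Cre replicates 1, 3 and 4. Kalrn also fell in that comparison, with a fitted log2 fold change of -2.53 ± 0.66 (edgeR adjusted p = 0.00542). Without Il17rc-Cre replicate 2 it passed at -1.82, beside a shift of all genes of -1.82 in the fit to all 10 libraries. The shift of all genes without that library is not given here.

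Within a family, the share of each member in its family's summed CPM per kilobase does not depend on the scaling of the library. Homer1 made up 91.3, 93.3 and 92.2% of the Homer family in Il17rb-Cre, 43.1, 52.8 and 56.0% in Il17ra-Cre and 47.8, 50.9, 46.4 and 46% in Il17rc-Cre. Homer3 made up 1.69 ± 0.364% in Il17rb-Cre, 43.4 ± 6.38% in Il17ra-Cre and 47.5 ± 2.95% in Il17rc-Cre (mean ± SD, n = 3, 3 and 4 libraries). Homer1 thus took nearly the whole family in Il17rb-Cre, and by the union of exons about as much as Homer3 in the other groups. With the longest transcript as the length, the mean Homer1 share was 95.5% in Il17rb-Cre, 62.2% in Il17ra-Cre and 59.5% in Il17rc-Cre. The mean Homer3 share on that length was 1.10%, 33.8% and 37.3% in the same order, below Homer1 in each group. The exact two-sided permutation test over libraries gave p = 0.1 against Il17ra-Cre and p = 0.0571 against Il17rc-Cre, the smallest p these group sizes allow, and none of 21 such tests could pass (adjusted p = 0.2625 or above).

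**Figure D1:**
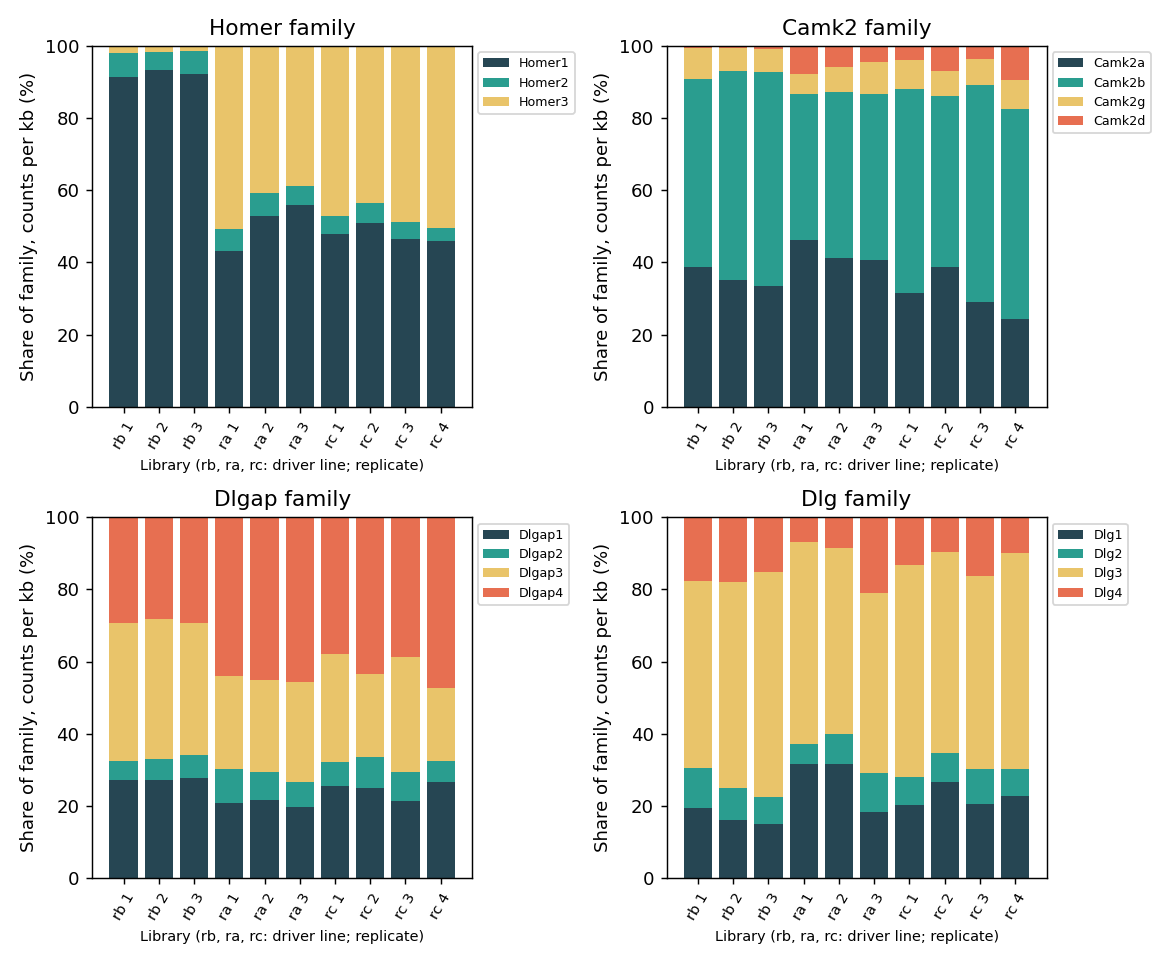
Share of each family's summed CPM per kilobase taken by each member, in percent, for the Il17rb-Cre, Il17ra-Cre and Il17rc-Cre libraries. Homer1 takes 91.3 to 93.3% in Il17rb-Cre and 43.1 to 56.0% in Il17ra-Cre, while the Camk2a and Camk2b shares differ less.

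In the CaMKII family, Camk2d took 0.630 ± 0.167% in Il17rb-Cre, 6.06 ± 1.70% in Il17ra-Cre and 5.95 ± 2.69% in Il17rc-Cre. Camk2b took 56.4 ± 3.82% in Il17rb-Cre, 44.1 ± 3.20% in Il17ra-Cre and 55.6 ± 5.67% in Il17rc-Cre. Camk2a took 35.7 ± 2.62% in Il17rb-Cre, 42.7 ± 3.02% in Il17ra-Cre and 30.8 ± 5.97% in Il17rc-Cre. These shares depend on the length used. With the longest transcript, the mean Camk2d share was 1.32% in Il17rb-Cre, 12.4% in Il17ra-Cre and 11.6% in Il17rc-Cre. On that length Camk2a and Camk2b took 32.3% and 49.2% in Il17ra-Cre. The shares below are again on the union of exons. The Camk2a share of Il17rb-Cre lay below that of Il17ra-Cre without overlap (exact permutation p = 0.1) and overlapped that of Il17rc-Cre (exact permutation p = 0.229), while Il17ra-Cre lay above Il17rc-Cre (exact permutation p = 0.0571). Among the SAPAP genes, Dlgap3 took 38.1, 39.0 and 36.5% in Il17rb-Cre, 25.6, 25.6 and 27.8% in Il17ra-Cre and 29.9, 23.0, 31.9 and 20.3% in Il17rc-Cre. Il17rb-Cre was higher than both without overlap (exact permutation p = 0.1 and 0.0571), and Dlgap4 took the largest share in the other groups, at 45.0 ± 0.809% in Il17ra-Cre and 41.8 ± 4.44% in Il17rc-Cre, beside 28.9 ± 0.674% in Il17rb-Cre. By the longest transcript, Dlgap1 had the largest mean share in Il17rb-Cre (40.8%), before Dlgap4 (30.1%) and Dlgap3 (24.3%). The mean Dlgap3 share stayed lower in the other groups on that length, at 16.7% in Il17ra-Cre and 16.5% in Il17rc-Cre. The Shank1 share was 62.0, 58.6 and 54.5% in Il17rb-Cre, 66.8, 64.9 and 63.5% in Il17ra-Cre and 60.9, 60.7, 52.1 and 60.2% in Il17rc-Cre. It was lower in Il17rb-Cre than in Il17ra-Cre without overlap (exact permutation p = 0.1) and overlapped the Il17rc-Cre range (exact permutation p = 0.971). The shares of Dlg4, Nlgn3 and Lrrtm4 overlapped between Il17rb-Cre and each other group (exact permutation p of 0.114 to 1.0).

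Promoter windows of 250 bases before the RefSeq start (GRCm38.p6) were at hand for 27 of the 38 members and 32851 windows in all. On either strand, GGGCGG was found in 14 of 27 members (51.85%) and 32.74% of all windows. CCAAT was in 5 (18.52%, beside 33.85% of all windows), CAGATG in 3 (11.11%, beside 14.44%) and TATAAA in 2 (7.41%, beside 12.37%). TGACGTCA was in 0 members (1.55% of all windows) and its core TGACG in Dlg3 and Homer1 (7.41%, beside 17.77%). The core was added to the search after the sequences were seen, and it lies within TGACGTCA. GGGCGG was held by windows of members that rose, such as Camk2b and Homer2, and of both that fell, Camk2d and Homer3. These are matches of letters in a fixed window.

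Genes related to the members were examined in CPM as 4 lists. Over all tested genes, 16.4% rose and 24.4% fell against Il17ra-Cre (median -0.09). Against Il17rc-Cre, 17.7% of all tested genes rose and 21.9% fell (median 0.02). Of 42 other postsynaptic scaffolds and regulators, 21 rose and 5 fell against Il17ra-Cre (median 0.61), and 22 rose and 6 fell against Il17rc-Cre (median 0.63). Lin7b, a partner of the Dlg scaffolds, had the highest fold of the list, at 119 ± 16.5 CPM in Il17rb-Cre and 18.9 ± 13.1 CPM in Il17ra-Cre (2.66 ± 0.50, edgeR adjusted p = 0.00221). Erbin, a relative of densin that is also an epithelial polarity scaffold, had the lowest, at 5.03 ± 1.74 CPM in Il17rb-Cre and 121 ± 61.8 CPM in Il17ra-Cre (-4.59 ± 0.44, edgeR adjusted p = 5.07e-05). Of 16 other calmodulin-dependent kinases and regulators, 15 rose and 0 fell against Il17ra-Cre (median 1.86), and 13 rose and 0 fell against Il17rc-Cre (median 1.5). Camk2n2, an inhibitor of CaMKII, was at 129.9 ± 6.74 CPM in Il17rb-Cre and 24.4 ± 11.9 CPM in Il17ra-Cre (2.41 ± 0.33, edgeR adjusted p = 0.000372). Camk1 had the lowest fold of that list (1.03 ± 0.19, edgeR adjusted p = 0.00203). Of 28 other synaptic adhesion genes, 17 rose and 2 fell against Il17ra-Cre, and 18 rose and 2 fell against Il17rc-Cre. Their folds against Il17ra-Cre ran from -1.38 ± 0.45 for the receptor phosphatase Ptprd to 2.40 ± 0.54 for the netrin Ntng1 (edgeR adjusted p = 0.0312 and 0.0055). Of 13 other calcineurin and protein phosphatase 1 genes, 6 rose and 1 fell in each comparison. Ppp1r1a, a phosphatase inhibitor, rose by 2.20 ± 0.41 against Il17ra-Cre and Rcan3, a calcineurin regulator, had a value of -2.06 ± 0.32 (edgeR adjusted p = 0.0021 and 0.000742).

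Between Il17ra-Cre and Il17rc-Cre, no member passed in CPM, and the groups overlapped for 35 of 38. The other 3 were 1 wholly above and 2 wholly below, where 7.92% and 6.65% of all tested genes were. Lrrtm2 was higher in every Il17ra-Cre library (0.86 ± 0.25, edgeR adjusted p = 0.0979), and Dlgap1 and Homer3 were lower in every one (-0.63 ± 0.19 and -0.71 ± 0.19, edgeR adjusted p = 0.119 and 0.0838). The members' median was -0.21, beside 0.03 over all genes. DESeq2 called 1 member higher and 2 lower, where it called 6.0% and 6.89% of all genes. Limma voom with quality weights called 2 higher and 10 lower, where it called 13.4% and 9.18%. Without Il17ra-Cre replicate 3, 9 members fell in edgeR, where 6.38% of all genes did, among them Dlgap1 (-0.82), Homer1 (-0.74), Homer3 (-0.80) and Cnksr2 (-0.84), with edgeR adjusted p of 0.0213, 0.0178, 0.0378 and 0.0168. Per pan-neuronal transcript these same 4 fell with all libraries in the fit, where 0.735% of all genes rose and 2.69% fell, and 0 members rose. Their log2 fold changes were -0.87, -0.72, -0.93 and -0.80 (edgeR adjusted p = 0.0306, 0.0427, 0.0497 and 0.0347), beside a shift of all genes of -0.20. Each of the 4 calls was lost in at least 1 of the fits without a single library, 7 of 10 fits for Dlgap1 and 8 of 10 for each of the others, with edgeR adjusted p of 0.0542 to 0.149. On this scale the excitatory markers in place of the pan-neuronal ones gave 0 members lower, and 0 of all genes. Relative to the pan-neuronal sum, 0 members lay wholly above Il17rc-Cre and 13 wholly below, where 2.61% and 13.9% of all tested genes did.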

How the data were processed

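The authors deposited 1 table of raw read counts per gene for the 10 libraries, per the file headers. Per the submitters' processing notes the reads were aligned with STAR 2.7.5c to GRCm38, and per the labels' protocols libraries were made with SMART-Seq v4 from RNA pulled down with antibodies against GFP. For the counting tool, strand setting and annotation, none is given in the sources used here. Libraries carry no molecular identifiers, so precision depends on more than depth, which was 39692925 to 165844244 counts. Whether replicates came from separate animals is not labelled, so a p-value reflects only the spread among these libraries, which may be technical. No pair of libraries of a group was identical (smallest chi-square per degree of freedom 31.31).

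All 55536 identifiers were given symbols, positions and exon lengths from GENCODE M21 (GRCm38). In R 4.3.3, edgeR 4.0.16 was fitted by quasi-likelihood to all 10 libraries, with TMM scaling and its filter by group, which removed 35235 genes and left 20301. The Il17r genes were kept in any case. The Benjamini-Hochberg threshold was 0.05 over all tested genes. A second fit used the summed counts of 16 pan-neuronal genes as the size of each library and left those genes out. Only the first fit, with TMM scaling, was tested on simulated data. The common dispersion was 0.239, a coefficient of variation of 0.489. Family shares were tested over libraries by exact two-sided permutation. Levels per kilobase used the union of exons. RefSeq promoter windows (GRCm38.p6) were searched on both strands.

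The 38 members, the lists of markers and related genes and the alternatives were chosen with earlier results of these data known. All 38 members are named, and of each list of related genes the highest and lowest by fold against Il17ra-Cre. The alternatives were DESeq2 1.42.0, limma 3.58.1 voom with quality weights, other scalings and filters, only the 2 groups compared, replicate blocks, excitatory markers as the scale, and fits without 1 or 2 libraries. Replicate numbers were not treated as pairs, since the correlation of same-numbered libraries was -0.0826 to 0.181 and not above 0.1 for every pair.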

Additional observations from a re-analysis of the deposited data

Results flagged for a closer look

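Of 45 sets of 4 libraries examined for a library far from the others (levels of the 38 members and family shares in Il17rc-Cre), 1 stood out. Shank1 made up 52.1% of the summed Shank CPM per kilobase in Il17rc-Cre replicate 3, and the distance to the next library was 0.916 of the whole range of the group, beside a critical value of 0.829. Chance gives such a value in about 5% of sets, so 1 of 45 is no more than chance gives.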

How the results depend on the processing

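The 28 members higher and 2 lower in CPM held within 1.5 times in both Il17rb-Cre comparisons under DESeq2, limma voom, other scalings and filters, 2-group fits and blocks. With 1 library left out, 23 to 31 were higher against Il17ra-Cre and 20 to 31 against Il17rc-Cre, and 2 were lower in every such fit. The shares of all genes called in these fits are not set beside the counts, which show only how the member calls moved. Of 30 calls each, 15 against Il17ra-Cre and 19 against Il17rc-Cre were kept in all 21 alternatives. Per pan-neuronal transcript, 8 of 14 and 17 of 27 calls in these comparisons were kept in all 14 alternatives, and 0 of 4 between Il17ra-Cre and Il17rc-Cre. Without Il17ra-Cre replicates 1 and 2, a fit that leaves 1 Il17ra-Cre library assumed to vary like the others, 13 members were higher against Il17ra-Cre (median 0.87), of 1464 genes higher and 2728 lower. The cause of the changes listed here was not tested.

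The comparison of Il17ra-Cre with Il17rc-Cre depended most on the settings. Over all genes DESeq2 gave 978 higher and 1123 lower, limma voom 2716 and 1863, and the filter of 1 CPM in 3 libraries 297 lower. Only the 2 groups gave 0 and 1. Leaving out both Il17ra-Cre replicates 1 and 2, or both Il17rc-Cre replicates 1 and 3, gave 0 and 0. With 1 library left out, 0 to 1541 genes were higher and 0 to 1345 lower, the highest without Il17ra-Cre replicate 3. Members in that comparison were 1 higher and 2 lower in DESeq2, 2 and 10 in limma voom, and 0 to 9 lower with 1 library left out. Their median reversed to 0.037 without Il17ra-Cre replicates 1 and 2. For Il17rb-Cre, limma voom gave 5085 genes higher against Il17ra-Cre and 5582 against Il17rc-Cre. In edgeR, 3603 genes were higher against Il17rc-Cre with all libraries. That edgeR count was 2221 to 4285 with 1 library left out and 2305 without Il17rc-Cre replicates 1 and 3.

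Per pan-neuronal transcript, the members higher against Il17ra-Cre numbered 0 to 3 with 1 library left out, and against Il17rc-Cre 0 to 1. Of the settings on this scale, the share of all genes called is given only for the excitatory markers. The other member counts show only how the calls moved. Without either pair of libraries 0 were higher against Il17ra-Cre, and without Il17rc-Cre replicates 1 and 3, 17 were lower against Il17rc-Cre. With excitatory markers as the scale, 0 were higher and 25 lower against Il17ra-Cre, beside 0.227% and 77.2% of all genes. Members lower in Il17ra-Cre against Il17rc-Cre numbered 0 to 13 with 1 library left out, 0 without either pair of libraries, 0 with the block and 0 with excitatory markers, where their median reversed to 0.10.

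The signs of 3 members that did not pass reversed. Against Il17ra-Cre, Dlg1 was at -0.16 in limma voom and -0.18 to 0.22 with 1 library left out. Lrrtm2 was at 0.07 in limma voom (0.068), at 0.07 with upper quartile scaling (0.072) and at -0.18 to 0.024 with 1 library left out. Against Il17rc-Cre, Kalrn was at -1.04 to 0.0074 with 1 library left out.

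The replicate block gave 28 and 23 members higher in the 2 Il17rb-Cre comparisons and 2 lower in each. The share of all genes called with the block in those comparisons is not given here. For Il17ra-Cre against Il17rc-Cre the replicate block gave 0 genes higher and 2 lower, and the block by library number 0 and 1. Same-numbered libraries did not deviate together in every pair, so the samples share only a number.

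These libraries limit what can be said of members with few counts, such as Lrfn2 (15 counts in 1 library), and of differences within the coefficient of variation of 0.489. Reads on exons shared with a gene on the other strand (Homer3, Icam5, Lrrtm4) or with Gm21986 (Nlgn3) could not be assigned without strand. Gene counts do not separate isoforms. The smallest permutation p for shares was 0.0571, so no share could pass. The pan-neuronal scale is itself made of genes that differ between neuron types.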
